A study of Rattus norvegicus with 6 samples.

Results

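The dual specificity phosphatases described here are 9 genes of 1 enzyme family, Dusp1, Dusp2, Dusp4, Dusp5, Dusp6, Dusp10, Dusp12, Dusp14 and Dusp16, which were looked up on the arrays through the RefSeq mRNA accession of each probe. Of the 9 genes, 8 had a probe, against 13903 genes named on the array in all, and no probe matched Dusp4, which was not analysed here. Each of the 8 was represented by 1 probe printed on 1 spot, all 8 stood well above background on 3 or more arrays and were tested, and none was saturated.

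Messenger RNA was measured in islets from the pancreas of male Wistar rats that were 3 months or 12 months old, with 3 arrays for each age. The labels name no engineered allele and no treatment, and age is the only difference between the groups that they give. The islets of both ages had been released from the pancreas by collagenase digestion. Each RNA was labelled with Cy3 and hybridised to a 1-colour Arraystar array. Digested islets keep some of the cells that surround them, and fewer cells of a type cannot be told apart from less RNA per cell in such whole-islet samples. The p-values measure the spread between these 3 rats of each age. The file headers give 1 scan for each age, and effects of the scan cannot be told apart from effects of age.

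Mitogen-activated protein (MAP) kinases relay signals of growth factors, hormones, nutrients and stress, and become active when a threonine and a neighbouring tyrosine are both phosphorylated. Dual specificity phosphatases remove both phosphates. Several of their genes are themselves switched on by the pathway they restrain, which makes them part of a negative feedback, and in beta cells MAP kinase signalling is known to respond to glucose and to growth factors. Dusp1, Dusp2, Dusp4 and Dusp5 encode inducible nuclear enzymes, Dusp6 encodes a cytoplasmic enzyme with a preference for extracellular signal-regulated kinase (ERK), Dusp10 and Dusp16 encode enzymes with a preference for the stress kinases JNK and p38, and Dusp12 and Dusp14 encode atypical family members that lack the kinase-binding domain.

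Islets of 12-month-old rats had a higher level of 3 of the 8 genes than islets of 3-month-old rats, by a fold above 2 with an unadjusted limma p below 0.05. Dusp6 was 5.21-fold higher, Dusp14 3.32-fold higher and Dusp1 2.93-fold higher, and for these genes every 12-month array lay above every 3-month array. Dusp6 alone passed an adjusted p of 0.05 (limma, Benjamini-Hochberg adjustment over all tested probes). Dusp12 had a higher mean at 12 months and Dusp2, Dusp5, Dusp10 and Dusp16 a lower one, without passing either threshold. In all, 4 members had a higher and 4 a lower mean at 12 months.

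These counts were read against all 11201 named genes tested. At an adjusted p under 0.05, 1 of 8 members was higher and 0 were lower, where 4.87% of all genes were higher and 2.98% lower. Below an unadjusted p of 0.05, 3 of 8 members were higher and 0 lower by limma, where 13.6% of all genes were higher and 17% lower, and an unpaired test without moderated variances gave the same 2 counts of members. With a fold of over 2 and an unadjusted p below 0.05, called the fold threshold in what follows, 3 of 8 members were higher and 0 lower, where 9.8% of all genes were higher and 9.67% lower. Every 12-month value lay above every 3-month value for 3 of 8 members and below it for 0, against 17% and 22.1% of all genes. The split of all genes at the fold threshold moved with the scaling and with the background correction. It was 7.46% higher of 23.3% called after arrays were shifted to the same 75th percentile. After normexp background correction, with quantile normalisation kept, it was 6.78% of 11.2%. The median difference of the 8 members was 0.28 on the log2 scale (12-month minus 3-month), and that of all genes was -0.13.

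**Figure D1:**
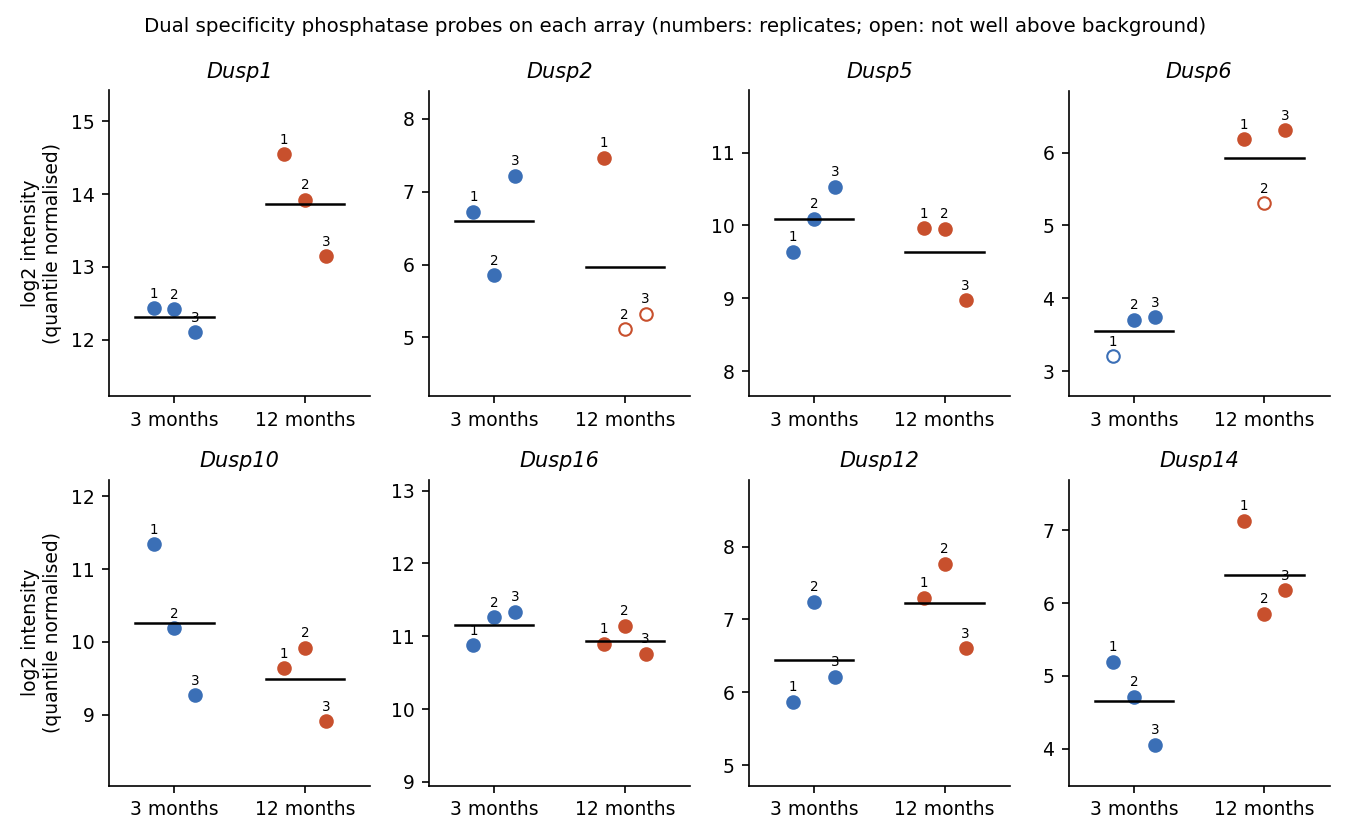
Quantile-normalised log2 intensity (vertical axis, spanning the same number of log2 units in each panel) of the 8 measured family members on each array, with 3-month arrays in blue and 12-month arrays in red. Numbers name the replicates, black lines are means of 3 arrays, and open circles are spots not well above background. The ages separate for Dusp1, Dusp6 and Dusp14 and overlap for the other 5 genes.

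The start-site windows of the 3 genes past the fold threshold are printed here, because these are the members that were higher together at 12 months. Dusp14 has 3 annotated windows, of which only the window with a match is printed. The windows come from RefSeq on rat assembly GRCr8, reach from 250 bases before to 50 bases after an annotated start, and are written 5′ to 3′ on the strand of the gene. Capitals mark matches, on either strand, to the cyclic AMP response element (CRE, TGACGTCA), its core TGACG (which each full element also contains), the AP-1 element TGANTCA and the CArG box bound by serum response factor. The windows are chr10:17184603-17184902 (plus strand) for Dusp1, chr7:35979354-35979653 (plus strand) for Dusp6, and chr10:69452292-69452591 (minus strand) for Dusp14.
Dusp1: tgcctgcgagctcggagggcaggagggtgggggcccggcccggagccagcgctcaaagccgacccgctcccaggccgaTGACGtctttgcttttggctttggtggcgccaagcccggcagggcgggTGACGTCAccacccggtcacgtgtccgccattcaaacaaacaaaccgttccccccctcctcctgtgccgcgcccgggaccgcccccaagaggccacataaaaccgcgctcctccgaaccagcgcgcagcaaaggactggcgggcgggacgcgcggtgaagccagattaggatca
Dusp6: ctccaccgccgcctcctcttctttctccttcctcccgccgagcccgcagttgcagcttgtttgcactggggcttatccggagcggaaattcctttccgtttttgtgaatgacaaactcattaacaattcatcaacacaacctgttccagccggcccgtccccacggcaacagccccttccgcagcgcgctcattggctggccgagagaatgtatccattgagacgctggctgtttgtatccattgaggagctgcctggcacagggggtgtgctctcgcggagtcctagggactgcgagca
Dusp14: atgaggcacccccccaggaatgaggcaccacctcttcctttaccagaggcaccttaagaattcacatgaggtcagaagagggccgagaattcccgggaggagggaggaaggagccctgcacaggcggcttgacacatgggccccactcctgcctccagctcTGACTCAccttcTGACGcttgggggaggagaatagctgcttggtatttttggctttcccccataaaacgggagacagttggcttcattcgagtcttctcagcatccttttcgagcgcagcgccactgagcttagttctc

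The Dusp1 window held a full CRE from -124 to -117 relative to the start site and a further TGACG core from -172 to -168. The Dusp14 window held an AP-1 element from -89 to -83 and a TGACG core from -77 to -73, and the other 2 of the 3 annotated Dusp14 windows held no match. No match was found in the window of Dusp6. Of 33469 windows of the same length, 1.83% held a full CRE, 21.2% a TGACG core, 7.33% an AP-1 element and 1.64% a CArG box. These shares are for single windows and do not allow for the 3 windows of Dusp14. Among the members that did not differ past a threshold, Dusp5 had a pair of CArG boxes, from -82 to -73 and from -72 to -63, and a TGACG core from -55 to -51. Dusp2 and Dusp16 each had 1 TGACG core, from -9 to -5 and from -70 to -66, and Dusp10 and Dusp12 had no match. In all, 5 of the 8 members with a window had a match to at least 1 of the 4 motifs, counting any of the 3 windows of Dusp14. The share of all genes with such a match was not counted. These matches describe letters in 1 window and do not show binding of a factor.

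Among the inducible nuclear enzymes, Dusp1, which inactivates p38, JNK and ERK after stress and hormone signals, was the gene past the fold threshold. Its log2 intensity was 12.43, 12.42 and 12.10 on 3-month replicates 1, 2 and 3, and 14.54, 13.92 and 13.15 on 12-month replicates 1, 2 and 3. The 3-month arrays lay close together, the 12-month arrays were spread more widely, and the lowest 12-month array stood above the highest 3-month array by 0.71. The means were 12.32 ± 0.19 and 13.87 ± 0.70 (SD, n = 3 arrays each), and the difference was 1.55 with a standard error of 0.38 and a 95% confidence interval from 0.65 to 2.46. The adjusted p (limma) was 0.0537, and the exact permutation test gave a two-sided p of 0.1, the smallest that 3 arrays against 3 allow.

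Dusp1 was bright on every array, with a signal error of 10% according to the scanner software. Its difference stayed between 1.22 and 1.97 under the 18 alternatives to the processing or the choice of arrays, and it passed the fold threshold in each of them. It passed the adjusted threshold in 3 of these, with normexp background correction (adjusted p = 0.0496), with probes required to be above background on all 6 arrays (0.0395) and with variances modelled on intensity (0.0265), all from limma. Without 12-month replicate 1, its highest array, the difference was 1.22 and the adjusted p 0.155.

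Dusp5, a nuclear phosphatase selective for ERK, had log2 intensities of 9.64, 10.10 and 10.54 on 3-month replicates 1, 2 and 3 and of 9.96, 9.96 and 8.97 on 12-month replicates 1, 2 and 3. The ages overlapped, and 12-month replicate 3 was the lowest of all. The means were 10.09 ± 0.45 and 9.63 ± 0.57 (SD, n = 3 each), a difference of -0.46 with a standard error of 0.38, an interval from -1.37 to 0.45 and an adjusted p (limma) of 0.422.

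Dusp2, a nuclear phosphatase best known from activated immune cells, had log2 intensities of 6.73, 5.86 and 7.22 on 3-month replicates 1, 2 and 3 and of 7.47, 5.11 and 5.33 on 12-month replicates 1, 2 and 3. The highest of the 6 values was that of 12-month replicate 1. This was also the only 12-month array on which the spot was well above background, whereas it was on all 3 young arrays. The mark needed a higher signal on the 12-month arrays. Background-subtracted intensities of 44.8 and 37.1 missed it on 12-month replicates 2 and 3. Those of 43.5 and 51.4 reached it on 3-month replicates 1 and 2. The means were 6.60 ± 0.69 and 5.97 ± 1.30 (SD, n = 3 each), a difference of -0.63 with a standard error of 0.68, an interval from -2.26 to 0.99 and an adjusted p (limma) of 0.538. This was the widest interval of the 8 members. Without 12-month replicate 1 the difference was -1.38, past the fold threshold but with an adjusted p of 0.183.

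Dusp6, the cytoplasmic phosphatase that binds and inactivates ERK, had the largest difference of the 8 members with the reported processing. With normexp background correction, Dusp1 (1.49) and Dusp14 (0.70) exceeded it (0.68). On the 4 arrays whose names share an ending, Dusp14 did (2.11 against 2.02). The log2 intensity of Dusp6 was 3.20, 3.70 and 3.74 on 3-month replicates 1, 2 and 3. On 12-month replicates 1, 2 and 3 it was 6.18, 5.30 and 6.30. All 12-month arrays were above all 3-month arrays, and the gap between the nearest arrays was 1.56. The means were 3.55 ± 0.30 and 5.93 ± 0.55 (SD, n = 3 each). The difference was 2.38 with a standard error of 0.34, a 95% confidence interval from 1.56 to 3.20 and an adjusted p (limma) of 0.0149, while the exact permutation p was again 0.1.

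The Dusp6 spot was dim. Before normalisation its background-subtracted intensity was 5.47, 12.8 and 16.2 on the 3-month arrays and 128, 51.9 and 74.8 on the 12-month arrays, in the same replicate order. It was not well above background on 3-month replicate 1 or on 12-month replicate 2, so that 2 of 3 arrays of each age measured it. The lowest log2 level that counted as well above background among the kept probes was 3.01 to 3.40 on the 3-month arrays and 4.26 to 5.13 on the 12-month arrays, and all 3 young Dusp6 values lay below the latter range. The software's error of the signal was 18.1% to 35.1% at 3 months and 12.8% to 25.0% at 12 months. Negative control spots had background-subtracted medians of 1.67 to 2.24 on the 3-month arrays and 8.47 to 11.6 on the 12-month arrays. The part of this background in the Dusp6 difference was not tested.

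The size of the Dusp6 difference depended on the processing of the background and on the scaling between arrays. Normexp background correction was run on the uncorrected intensities, with a constant of 50 added to every signal. The difference was then 0.68, with an adjusted p (limma) of 0.0561. The parts of the correction and of the added constant were not tested separately. With arrays shifted to the same 75th percentile the Dusp6 difference was 1.78, with an adjusted p (limma) of 0.0454. Its direction was the same in all 17 alternatives in which it was tested, and it passed the fold threshold in 16 of them and the adjusted threshold in 8. Leaving out 12-month replicate 1, 12-month replicate 3 or 3-month replicate 1 ended the adjusted call. The adjusted p (limma) was 0.0689, 0.0566 and 0.0602 and the difference 2.26, 2.20 and 2.21. In these settings 1.08%, 1.35% and 1.55% of all genes passed the adjusted threshold, against 7.86% as reported.

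The genes whose values followed Dusp6 most closely over the 6 arrays were Thoc1, which encodes a subunit of an mRNA export complex, Mcoln3, which encodes an endolysosomal cation channel, and Tmx2, which encodes a thioredoxin-related membrane protein. Their mean-centred log2 values differed from those of Dusp6 by a root mean square of 0.19, 0.19 and 0.26, the smallest of 9087 named genes well above background on all arrays. Their own differences between the ages were 2.34, 2.09 and 2.37. A difference near that of Dusp6 follows from choosing genes by these same values.

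Neither of the enzymes with a preference for stress kinases differed past a threshold. Dusp10, which acts on p38 and JNK, had log2 intensities of 11.34, 10.19 and 9.27 on 3-month replicates 1, 2 and 3 and of 9.64, 9.92 and 8.91 on 12-month replicates 1, 2 and 3. The ages overlapped, and 3-month replicate 1 stood far above the other arrays. The means were 10.26 ± 1.04 and 9.49 ± 0.52 (SD, n = 3 each). The difference was -0.78 with a standard error of 0.55, an interval from -2.09 to 0.54 and an adjusted p (limma) of 0.356. It was -1.28 without 3-month replicate 3, where it passed the fold threshold (adjusted p = 0.178), and -0.24 without 3-month replicate 1.

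Dusp16, which acts mainly on JNK, had the smallest standard error of the 8 members, 0.25. Its log2 intensity was 10.88, 11.26 and 11.33 on 3-month replicates 1, 2 and 3 and 10.90, 11.14 and 10.76 on 12-month replicates 1, 2 and 3. The ages overlapped, although 3-month replicates 2 and 3 lay above all 12-month arrays and 12-month replicate 3 lay below all 3-month arrays. The means were 11.16 ± 0.25 and 10.94 ± 0.19 (SD, n = 3 each), and the difference of -0.22 had an interval from -0.81 to 0.37 and an adjusted p (limma) of 0.553.

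The atypical enzyme Dusp14, which also dephosphorylates MAP kinases and is known as a regulator of T cell signalling, had log2 intensities of 5.20, 4.71 and 4.06 on 3-month replicates 1, 2 and 3 and of 7.13, 5.85 and 6.18 on 12-month replicates 1, 2 and 3. The ages did not overlap, with a gap of 0.66 between the nearest arrays, and 12-month replicate 1 was clearly the highest. The means were 4.66 ± 0.57 and 6.39 ± 0.67 (SD, n = 3 each). The difference was 1.73 with a standard error of 0.44 and an interval from 0.69 to 2.78, the adjusted p (limma) was 0.0573 and the exact permutation p 0.1.

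The Dusp14 spot was well above background on all 6 arrays but was also dim, with background-subtracted intensities of 18.6, 24.3 and 19.95 at 3 months and 270, 78.4 and 68.4 at 12 months. Its difference was 0.70 with normexp background correction and 1.29 with the 75th percentile shift, and in these 2 of 18 alternatives it did not pass the fold threshold. With the shift the ages overlapped, since 3-month replicate 1 was at 6.06 and 12-month replicate 2 at 5.52. It passed the adjusted threshold with probes required to be above background on all 6 arrays (adjusted p = 0.0431, limma) and without 12-month replicate 2 (0.0458), where the difference was 2.00.

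Dusp12, an atypical phosphatase with a zinc-binding domain, had log2 intensities of 5.87, 7.25 and 6.22 on 3-month replicates 1, 2 and 3 and of 7.30, 7.77 and 6.61 on 12-month replicates 1, 2 and 3. Its ages overlapped through 3-month replicate 2 and 12-month replicate 3. The means were 6.44 ± 0.72 and 7.22 ± 0.58 (SD, n = 3 each). The difference was 0.78 with a standard error of 0.46, an interval from -0.31 to 1.87 and an adjusted p (limma) of 0.272. Without 3-month replicate 2 the difference was 1.18 and passed the fold threshold, with an adjusted p of 0.123.

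**Figure D2:**
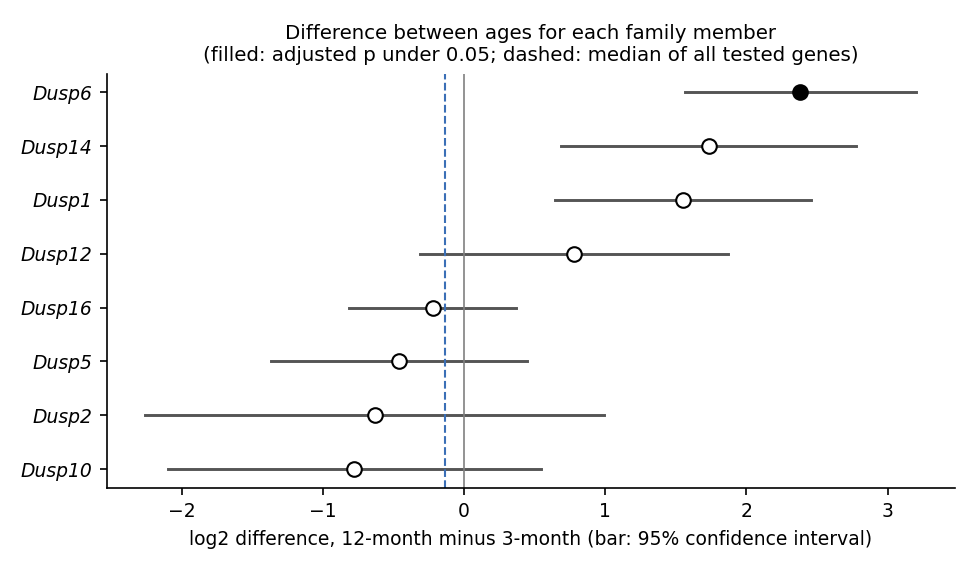
Log2 difference between 12-month and 3-month islets (horizontal axis) for the 8 measured family members, with 95% confidence intervals from limma as bars. The filled circle is the gene with an adjusted p under 0.05, Dusp6, and the intervals of Dusp1, Dusp6 and Dusp14 lie above 0 whereas those of the other 5 genes include 0. The dashed line is the median of all tested genes, -0.13.

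The median gene was lower at 12 months by an amount that depended on the scaling and the background correction. The median difference was -0.13 as reported, -0.34 after the 75th percentile shift and -0.08 after normexp correction with quantile normalisation. Relative to the median gene, the quantile-normalised difference was 2.51 for Dusp6, 1.86 for Dusp14 and 1.68 for Dusp1, whereas it was -0.64 for Dusp10, -0.50 for Dusp2, -0.33 for Dusp5 and -0.09 for Dusp16. Within an age, 12-month replicate 3 had the lowest value of 5 of the 8 members and 12-month replicate 1 the highest of 4. On the 4 arrays whose names share an ending, 2 of each age, the differences were 1.97 for Dusp1, 2.02 for Dusp6 and 2.11 for Dusp14. Each was past the fold threshold (13.7% of all genes). There 0 members and 0% of all genes passed the adjusted threshold.

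**Figure D3:**
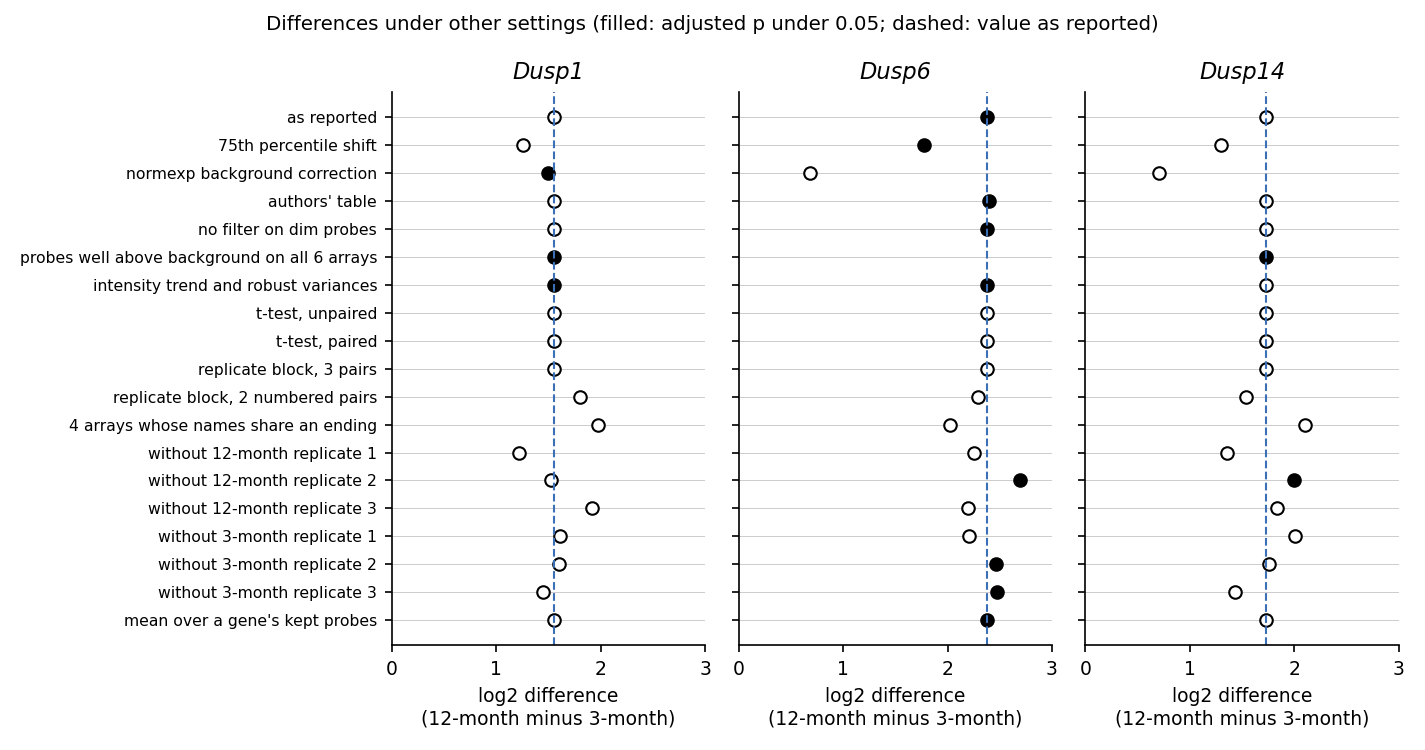
Log2 difference between 12-month and 3-month islets (horizontal axes) of Dusp1, Dusp6 and Dusp14 as reported and under each alternative processing or choice of arrays (rows). Filled circles are values with an adjusted p under 0.05 and dashed lines mark the values as reported. All values lie above 0, the adjusted calls vary between rows, and normexp correction gives the lowest values of Dusp6, 0.68, and Dusp14, 0.70.

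Across the whole arrays, 59.5% to 64.2% of probes were well above background on the 12-month arrays and 73.0% to 77.4% on the 3-month arrays. The median uncorrected intensity of negative control spots was 89.5 to 91 at 12 months and 29.5 to 31 at 3 months. After background subtraction it was still higher at 12 months, 8.47 to 11.6 against 1.67 to 2.24. Arrays correlated with r of 0.941 to 0.977 within an age and of 0.888 to 0.956 across ages, over kept probes. Among beta cell markers, which showed the tissue, log2 differences ranged from -0.22 to 3.71, with Ins1 at 18.67 ± 0.22 and 18.77 ± 0.08 (log2, SD, n = 3 each) and the zinc transporter gene Slc30a8 at 10.29 ± 0.31 and 14.00 ± 0.82 (adjusted p = 0.00904, limma). The marker list of stellate and mesenchymal cells had a higher mean at 12 months for 6 of 6 tested genes, 5 past the fold threshold, and its summed intensity was 26380 to 66047 against 9964 to 17554 at 3 months. Nerve and Schwann cell markers had a lower mean for 6 of 7 genes, 5 past the fold threshold, with sums of 3504 to 5201 against 5870 to 10367, and endothelial markers had a lower mean for 5 of 6, with 2 lower and 1 higher past it, with sums of 31498 to 53085 against 56562 to 73892. Of the other lists, 4 of 6 beta cell, 7 of 8 other endocrine, 5 of 7 acinar, 2 of 4 duct, 1 of 7 immune and 0 of 2 red blood cell markers had a higher mean at 12 months, with 1 gene past the fold threshold among beta cell, 1 among other endocrine and 1, lower, among red blood cell markers. Dusp1, Dusp6 and Dusp14 are not specific to 1 cell type, and the part of these cell types, of the array background and of the scan in their differences was not tested.

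The remaining genes of the family were described from a list of 26, of which 18 had a probe and 15 were tested. By limma 0 passed the adjusted threshold (4.87% of all genes higher and 2.98% lower). At an unadjusted p under 0.05, 3 were higher and 5 lower (13.6% and 17% of all genes). The unpaired test without moderation also called 0 after adjustment (2.37% of all genes). Ages did not overlap for 4 higher and 5 lower genes (17% and 22.1% of all genes). At the fold threshold 2 were higher and 2 lower (9.8% and 9.67% of all genes). Of the 15 tested genes, 5 had a higher and 10 a lower mean at 12 months. Their median difference was -0.17, near the -0.13 of all genes. The genes past the fold threshold were Dusp18, an atypical phosphatase (1.57, adjusted p = 0.0617), Cdc14a, which reverses phosphorylation by cyclin-dependent kinases (1.05, 0.0676), Dusp29, an atypical phosphatase best known from muscle (-2.40, 0.0881), and Dusp26, an atypical phosphatase of neural and neuroendocrine tissues (-1.41, 0.0529), all from limma. Dusp18 was well above background on 2 of the 3-month and 1 of the 12-month arrays. Nerve and Schwann cell markers had lower sums at 12 months, as given above, and their part in the Dusp26 difference was not tested.

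The kinases that these phosphatases oppose were described from a list of 39 MAP kinases and upstream kinases, of which 30 had a probe and 25 were tested. By limma 0 passed the adjusted threshold (4.87% of all genes higher and 2.98% lower). At an unadjusted p under 0.05, 6 were higher and 2 lower (13.6% and 17% of all genes). The unpaired test without moderation also called 0 after adjustment (2.37% of all genes). Ages did not overlap for 7 higher and 6 lower kinases (17% and 22.1% of all genes). At the fold threshold 4 were higher and 1 lower (9.8% and 9.67% of all genes). In all, 12 had a higher and 13 a lower mean, with a median difference of -0.04. The largest differences past the fold threshold were those of Map3k13, a kinase upstream of JNK (1.83, adjusted p = 0.0774), Mapk9, a JNK (1.80, 0.130), and Map2k6, which activates p38 (1.46, 0.0820), and Map3k1, upstream of JNK, was lower (-1.96, 0.0686). These adjusted p-values are from limma. The 3-month means of Map3k13, Mapk9 and Map2k6 were low, 5.55, 5.04 and 5.82, and that of Map3k1 was 9.90 (log2). Each was well above background on all arrays of both ages. With normexp correction 2 kinases passed the fold threshold.

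ERK is known to induce RNA of its own feedback inhibitors and of early response genes, and such genes were described from a list of 38, with 33 on the array and 29 tested. At 12 months 23 of them had a higher and 6 a lower mean, and the median difference was 0.53, whereas 4871 of all 11201 genes had a higher and 6330 a lower mean. Of the 29 genes, 1 was higher and 0 lower at the adjusted threshold (4.87% and 2.98% of all genes). At an unadjusted p under 0.05, 7 were higher and 2 lower by limma (13.6% and 17% of all genes). The unpaired test without moderation gave 4 and 2. At the fold threshold 4 were higher and 1 lower (9.8% and 9.67% of all genes). Every 12-month value lay above every 3-month value for 9 and below it for 2 (17% and 22.1%).

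The gene past the adjusted threshold was Phlda1, an early response gene, with 10.17 ± 0.48 at 3 months and 11.78 ± 0.17 at 12 months (log2, SD, n = 3 each), a difference of 1.61 with an adjusted p (limma) of 0.0290. After adjustment, 0 of the 29 genes passed by the unpaired test without moderation, with the replicate block, or without 12-month replicate 1, 12-month replicate 3, 3-month replicate 1 or 3-month replicate 3. In these settings 0% to 2.37% of all genes passed. Larger differences with more spread were found for Myc, a transcription factor of cell growth, at 4.73 ± 2.09 and 8.52 ± 0.67 (3.79, adjusted p = 0.0619), and Fos, an AP-1 subunit, at 5.63 ± 1.15 and 8.89 ± 2.22 (3.26, 0.106). Myc was well above background on 2 of the 3-month arrays and on all 12-month arrays. The zinc finger factor Egr3 was lower, with a difference of -2.06 (0.0565), and the fourth gene that was higher, Klf4, was chosen after its value was seen (1.34, 0.124).

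**Figure D4:**
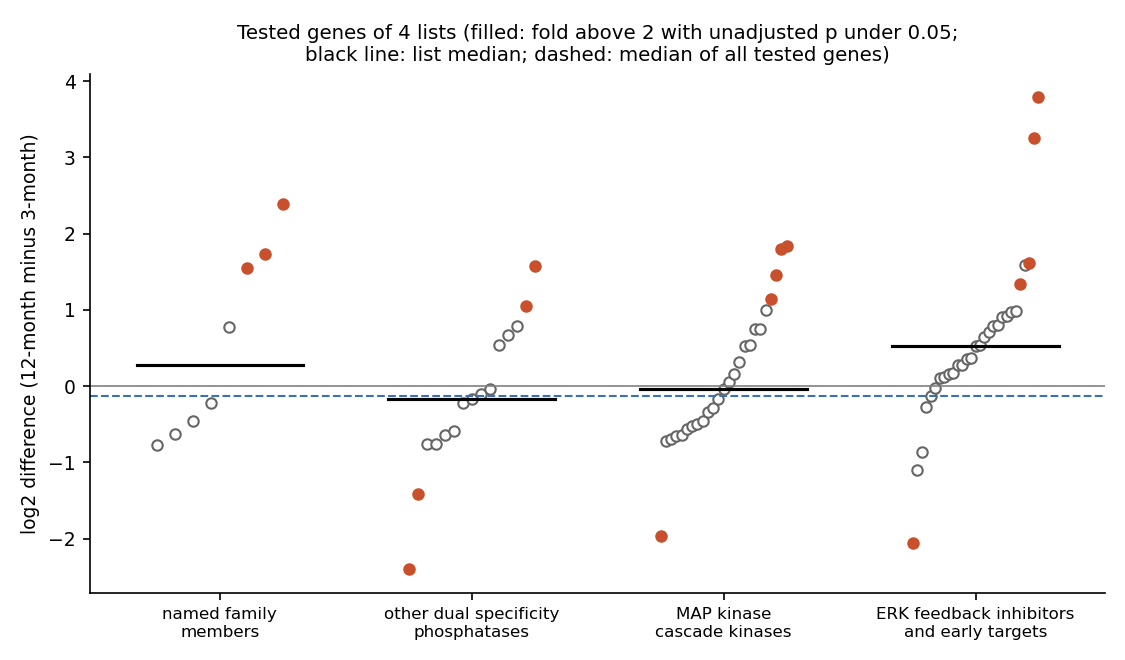
Log2 difference between 12-month and 3-month islets (vertical axis) of each tested gene in 4 lists, with genes ordered by difference within a list. Filled circles are genes past the fold threshold, black lines are list medians (0.28, -0.17, -0.04 and 0.53 from left to right) and the dashed line is the median of all tested genes, -0.13.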

How the data were processed

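Islet RNA of both ages was hybridised to 6 arrays in all. Spot intensity in the deposited files came from Agilent Feature Extraction 11.0.1.1 per the file headers, with background already subtracted and no scaling between arrays, and uncorrected spot and local background intensity were given as well. Quality marks and control types are the other deposited columns that were used. The authors' own table holds quantile-normalised log2 values of 12145 probes, and the filter behind it is not given in the sources used here. Precision is limited by the number of arrays, which have no read depth.

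Spots marked as outliers were dropped, log2 values of the corrected intensity were averaged for each probe, and arrays were quantile normalised without control probes. Of 24684 probes, 17944 were kept because 3 or more of the 6 arrays showed them well above background, and 17941 gave a test. Ages were tested by limma 3.58.1 under R 4.3.3 (two-sided, moderated variances, no block), with p-values adjusted by Benjamini-Hochberg across all tested probes, and the code was tested on simulated data. Calls were made at either of these thresholds, an adjusted p below 0.05 and the fold threshold of the study (fold over 2, unadjusted p below 0.05). Exact permutation of 3 against 3 arrays has 20 arrangements, and its two-sided p is at least 0.1.

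RefSeq accessions without versions were matched to an assembly GRCr8 table for gene names, and the probe with the highest mean stood for a gene. Probe coordinates are left out because the array design uses an older assembly. All 9 members were named by rule, and of each other list up to 3 genes in each direction, those with the largest difference past the fold threshold. The values of 1 kinase past it are not reported here. Genes of like pattern had the smallest root mean square difference of mean-centred values. Members, gene lists and cell type markers were chosen with earlier results of these data known. Alternatives were another scaling, background correction, filter, variance model, test, block, source of values and choice of arrays. The 12-month array called replicate 3 has no number in the labels.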

Additional observations from a re-analysis of the deposited data

How the results depend on the processing

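The direction of Dusp1, Dusp2, Dusp6, Dusp12, Dusp14 and Dusp16 was the same under every alternative run. Dusp5 had a difference of 0.091 on the 2 numbered pairs with the replicate block, and Dusp10 of 0.0507 on the 4 arrays whose names share an ending, both reversed and neither past a threshold. At the adjusted threshold 2 members passed with variances modelled on intensity (11.6% of all genes). With probes above background on all 6 arrays, where 6 members were tested, 2 passed (11.9% of all genes). By the unpaired t-test 0 passed (2.37% of all genes). The paired t-test and the 4 arrays also gave 0 members. There 0% of all genes passed, so these counts say nothing about the members. At the fold threshold 1 member passed with normexp correction (11.2% of all genes). The ages did not overlap for 6 members on the 4 arrays, where fewer arrays are compared. The share of all genes without overlap was not counted there, and the shares given for 6 arrays do not apply.

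The study's legends name a paired t-test for its p-values. Deviations of same-numbered arrays correlated with r of -0.31 to -0.01, and 0 of 6 arrays were closest to their own number. The third pair was formed by elimination. These values showed no pairing by number but cannot decide whether the arrays were paired by design. With the replicate block on 3 pairs, 0 members passed the adjusted threshold (0.411% of all genes). On the 2 numbered pairs 0 members passed it, where 0% of all genes did. On these 2 pairs 5 members did not overlap, and the share of all genes was not counted. With either block, 3 members passed the fold threshold (17.9% and 15.2% of all genes) and 0 ERK targets the adjusted threshold. On the 2 pairs, 1 other family gene and 1 kinase passed the fold threshold.

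Leaving out 1 array at a time gave 0 to 2 members at the adjusted threshold, 3 to 4 at the fold threshold and 3 to 5 without overlap. Of all genes, 1.08% to 10.2% passed the adjusted and 16% to 23.7% the fold threshold. The share of all genes without overlap was not counted. Other family genes numbered 0 to 2 at the adjusted and 2 to 5 at the fold threshold, kinases 0 to 1 and 4 to 6, and ERK targets 0 to 3 and 4 to 8. The ERK target count at the adjusted threshold was 0 without 12-month replicate 1, 12-month replicate 3, 3-month replicate 1 or 3-month replicate 3.

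For the lists, normexp correction gave 2 other family genes and 2 kinases at the fold threshold and 1, 2 and 3 genes (family, kinases, ERK targets) at the adjusted threshold. The 75th percentile shift gave 3 kinases at the fold threshold and 2 ERK targets at the adjusted threshold. Probes above background on all 6 arrays gave 2 family genes at the fold threshold and 1, 1 and 2 at the adjusted threshold, and variances modelled on intensity gave 1, 1 and 3. The authors' table, no filter and the mean over probes each gave 1 kinase at the adjusted threshold. The unpaired t-test gave 3 ERK targets at the fold threshold and 0 adjusted, the paired t-test 2 family genes, 0 kinases and 0 ERK targets, with 0 adjusted, and the 4 arrays 1 family gene and 1 kinase, with 0 ERK targets adjusted. What causes these changes was not tested.

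With 3 arrays for each age a two-sided exact permutation p cannot fall below 0.1. Low signals limit Dusp2, Dusp6 and Dusp14, whose spots lay near the background of the arrays, and a higher background on the 12-month arrays goes with age and scan, which cannot be told apart.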
